A study of Mus musculus with 7 samples.

Results

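The genes of MHC class I antigen presentation and the class I coactivator gene Nlrc5 were followed in chromatin accessibility maps of sorted intestinal stem cells. The set holds 10 genes: Nlrc5, H2-K1, H2-D1, B2m, Tap1, Tap2, Tapbp, Psmb8, Psmb9 and Erap1, of 21521 protein-coding genes in the mm10 RefSeq table. A peak was given to a gene when its summit lay in the gene's body, or when the gene was the nearest protein-coding gene within 50 kb. By this rule 173 peaks, which merged into 29 regions of 103809 in the whole series, belonged to the set. Of these 29 regions, 18 held a peak in all 7 libraries, 7 in 2 to 6 libraries and 4 in a single library.

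The libraries were made by Omni-ATAC-seq, in which a transposase cuts and tags accessible DNA, from Lgr5-GFP intestinal stem cells 7 days after bone marrow transplantation (BMT). All recipients were lethally irradiated female B6-GFP-Lgr5 mice of 8 to 12 weeks. The 3 Syn libraries came from recipients of syngeneic marrow, and the 4 Allo libraries from recipients of marrow from BALB/c donors, which differ from the host at the MHC. Each library pooled cells of 3 to 4 mice and 50000 sorted cells. Both groups share the irradiation and the transplant, so neither is an untreated control. The GFP reporter marks cells in which the Lgr5 promoter is active, and the reporter is carried by the recipients.

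Nucleated cells display peptides of their own proteins on MHC class I molecules, which CD8 T cells read. The immunoproteasome subunits Psmb8 and Psmb9 cut proteins into peptides. The transporter made of Tap1 and Tap2 carries these into the endoplasmic reticulum, where Erap1 trims them and Tapbp (tapasin) helps to load them onto a heavy chain (H2-K1 or H2-D1) bound to B2m. NLRC5 is a transactivator of MHC class I genes. It binds no DNA itself and joins a complex of RFX, CREB/ATF and NF-Y factors on class I promoters. The genes of the set, Nlrc5 included, are inducible by interferon gamma. In gut epithelium class I is displayed constitutively and rises with interferon. Allogeneic T cells that attack the gut in graft-versus-host disease read host MHC.

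Promoter sequences of 8 of the 10 genes were found in the RefSeq table used (GRCm38.p6), and those of Nlrc5 and Tap2 were not matched. The 250 bases before the start of 4 genes are shown because each window holds matches to a CREB/ATF core and an NF-Y core. Each window also lay wholly inside an accessible region present in all 7 libraries. Sites of RFX factors were not searched for. Capitals mark matches, on either strand, to TGACG (a core of CREB/ATF sites), CCAAT (the NF-Y core, ATTGG on the other strand), GAAANNGAA (an interferon-stimulated response element core) and GGGANTTTC (an NF-kB core). The windows are chr2:122147437-122147686 on the plus strand for B2m, chr17:34000348-34000597 on the minus strand for H2-K1, chr17:35262844-35263093 on the plus strand for H2-D1 and chr17:34187306-34187555 on the plus strand for Tap1.
B2m: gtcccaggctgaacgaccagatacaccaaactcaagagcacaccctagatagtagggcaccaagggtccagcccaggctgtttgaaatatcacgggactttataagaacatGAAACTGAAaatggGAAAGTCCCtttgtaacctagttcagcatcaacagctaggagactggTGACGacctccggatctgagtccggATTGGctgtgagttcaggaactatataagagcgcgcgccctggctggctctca
H2-K1: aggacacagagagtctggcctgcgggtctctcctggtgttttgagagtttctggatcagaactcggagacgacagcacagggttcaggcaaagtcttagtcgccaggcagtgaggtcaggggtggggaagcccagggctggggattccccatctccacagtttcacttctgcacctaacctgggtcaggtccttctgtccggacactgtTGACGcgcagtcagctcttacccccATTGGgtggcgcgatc
H2-D1: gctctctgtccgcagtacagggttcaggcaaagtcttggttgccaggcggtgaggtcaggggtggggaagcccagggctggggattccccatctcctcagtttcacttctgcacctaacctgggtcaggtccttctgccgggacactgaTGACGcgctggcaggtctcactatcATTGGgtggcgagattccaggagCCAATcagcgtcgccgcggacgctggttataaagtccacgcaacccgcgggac
Tap1: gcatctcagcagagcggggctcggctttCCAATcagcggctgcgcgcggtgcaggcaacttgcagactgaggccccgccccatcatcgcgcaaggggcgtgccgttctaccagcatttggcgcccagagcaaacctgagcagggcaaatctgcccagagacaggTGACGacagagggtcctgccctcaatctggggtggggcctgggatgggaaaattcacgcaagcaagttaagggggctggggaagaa

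In B2m, H2-K1 and H2-D1 the TGACG match was followed 20 bases later by ATTGG. This order and spacing was present in 3 of the 8 windows and in 14 of 17274 promoters of the same length (0.081%). The pattern was chosen after the positions of the matches had been seen. Tap1 lacked it, with CCAAT 222 bases and TGACG 86 bases before the start. Single motifs were more common. CCAAT was found in 6 of the 8 windows and in 36.7% of all promoters, and TGACG in 5 of the 8 and in 20.5%. Both counts include Tap1 and Psmb9, whose matches are the same bases seen from opposite strands. GAAANNGAA was found in B2m and Erap1 (7.0% of all promoters), GGGANTTTC in B2m (0.944%) and TTCNNNGAA, the core of a STAT site, in Psmb8 (6.77%). No search motif overlapped another in the printed windows. The windows of H2-K1 and H2-D1 were alike in 161 of 177 aligned bases (91.0%). Those of Tap1 and Psmb9, which are read in opposite directions from separate starts in the same accessible region, have 225 bases in common. These matches describe the sequence and are not measured binding sites.

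The deposited lists held 71925 to 76438 peaks in Syn and 62977 to 88861 in Allo. Read counts were not used here, so the depth behind each list is unknown, and a missing peak means only that none was called. Each peak was given its rank percentile within its own library (0 weakest, 100 strongest by the authors' −log10 q). Longer lists hold more weak peaks, which raise the percentile of stronger ones, so whole-list percentiles still depend on list length. For tests, regions were therefore ranked again among the 50324 merged regions present in all 7 libraries (48.5%), here called the shared rank. All 5 stem cell markers and all 5 epithelial markers had a peak within 500 bp of their start in every library. The annotated gene ends stood in for the start of markers without an entry in the promoter table, among them Lgr5, Smoc2 and Cdh1. Of the 7 T cell markers 6, of the 4 B cell markers 4 and of the 5 myeloid markers 4 had no peak within 500 bp of the start in any library. The same held for Ptprc and Laptm5, while Coro1a, the other pan-leukocyte marker, had a peak in all 7. Peaks of Allo 3 and Allo 4 are named by another scheme in the files than those of the other 5 libraries, and values without these 2, or without Allo 1 and Allo 2, are given where they change a result.

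**Figure D1:**
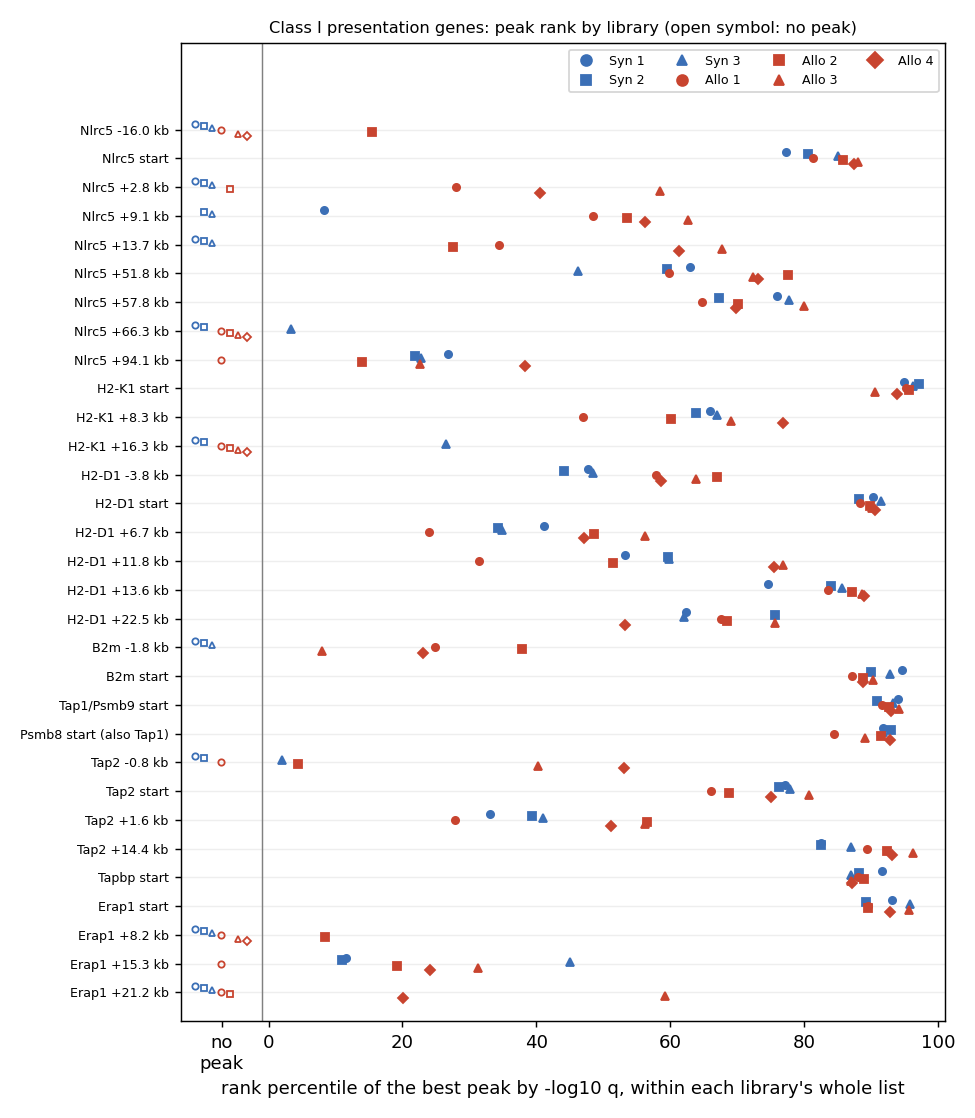
Rank percentile (0 to 100, horizontal axis) of the best peak in every region of the class I presentation genes, by library; open symbols at the left are libraries with no peak, and labels give the distance from the gene start (for Nlrc5 and Tap2, from the lower-coordinate end). Regions at gene starts lie between 66.1 and 97.2 in all 7 libraries, while weaker Nlrc5 regions are filled mainly by Allo libraries.

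The starts of all 10 genes, taken at the lower-coordinate end for Nlrc5 and Tap2, were accessible in all 7 libraries of both groups. None of these starts passed the test for a difference. They formed 9 distinct regions, since Tap1 and Psmb9 share one, with whole-list percentiles from 66.1 to 97.2. For genes with an entry in the promoter table, 8 of 8 members had a peak within 500 bp of the start in all 7 libraries, against 58.8% of all genes in that table. The shared rank was lower in Allo than in Syn at 8 of the 9 start regions, by small amounts. The differences ran from −7.11 to 6.33 percentile points with a median of −2.5; over all 9217 shared regions at a RefSeq start 41.0% were lower in Allo, and the median was 0.55. No member start passed limma with Benjamini-Hochberg adjustment over all shared regions, and the count of 8 ran from 6 to 9 over other settings.

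H2-K1, a classical class I heavy chain that presents peptides to CD8 T cells, had the highest ranked start of the set. Its start region, chr17:33998767-34000921, covers the promoter window printed above and the first part of the gene body. It had whole-list percentiles of 94.9, 97.2 and 96.3 in Syn and 95.2, 95.7, 90.5 and 93.9 in Allo. The lowest value was in Allo 3, and the groups overlapped. The shared rank was 90.2 ± 4.94 (SD, n = 4) in Allo and 94.3 ± 1.6 (SD, n = 3) in Syn, a difference of −4.09 (SE 2.12; limma adjusted p = 0.303). Without Allo 1 and Allo 2 the difference was −6.81 and passed (limma adjusted p = 0.0334), and without Allo 3 and Allo 4 it was −0.537. A weaker region 8.32 kb beyond the start, chr17:33991730-33992523, stood at 66.0, 63.9 and 67.0 in Syn and at 47.0, 60.1, 69.0 and 76.9 in Allo, on both sides of the Syn values. Another region, 16.3 kb beyond the start, had a peak in Syn 3 alone at percentile 26.5.

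H2-D1, the other classical heavy chain of this strain, had an overlapping start and 2 flanking regions in which the groups did not overlap. The start region, chr17:35262555-35264524, had percentiles of 90.3, 88.2 and 91.4 in Syn and 88.3, 89.9, 90.1 and 90.5 in Allo, and its shared rank differed by −0.926 (SE 1.94). Its summits lay within 14 bp of each other in the 7 libraries, a median of 48 bp before the start and thus in the printed window, close to the CCAAT match nearest the gene. Before the gene, 3.82 kb from its start at chr17:35259079-35259457, the percentiles were 47.7, 44.1 and 48.5 in Syn and 57.9, 67.0, 63.8 and 58.6 in Allo. Every Allo library stood above every Syn library. The shared rank was 43.0 ± 7.68 (SD, n = 4) in Allo and 25.4 ± 2.94 (SD, n = 3) in Syn, a difference of 17.6 (SE 7.06; limma adjusted p = 0.18). It was 11 without Allo 1 and Allo 2, and 3.03 when ranked by fold enrichment.

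Beyond H2-D1, 13.6 kb from its start at chr17:35276175-35276881, the percentiles were 74.6, 84.0 and 85.6 in Syn and 83.6, 87.2, 88.6 and 89.0 in Allo. On the shared rank the groups stood apart, with 80.5 ± 1.14 (SD, n = 4) in Allo against 72.8 ± 7.87 (SD, n = 3) in Syn (difference 7.69, SE 3.43; limma adjusted p = 0.228). Syn 1 was the lowest library on this scale at 63.8, and the next lowest was Syn 2 at 76.6; without Syn 1 the difference was 3.11. Ranked by the authors' fold enrichment in place of −log10 q, the difference turned to −4.10. The 3 other H2-D1 regions, 6.71, 11.8 and 22.5 kb from the start, had differences of 6.51, 3.41 and −2.07, and none passed (limma adjusted p = 0.579, 0.889 and 0.928). At 11.8 kb the percentiles were 53.3, 59.6 and 59.8 in Syn and 31.4, 51.5, 76.9 and 75.5 in Allo. There the difference was 19.1 without Allo 1 and Allo 2 (limma adjusted p = 0.0764) and −14.1 without Allo 3 and Allo 4 (limma adjusted p = 0.395). Heavy chain genes and pseudogenes of the H2 locus share long stretches of sequence, and the labels do not say how reads matching several copies were placed, so the values of H2-K1 and H2-D1 are uncertain.

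B2m, the light chain of every class I molecule, received no peak by the rule, although its start was strongly accessible. The median summit lay 129 bp before the B2m start and inside the annotated body of the neighbouring gene Patl2, which therefore took the peaks. The region was taken by position instead, and stands outside the counts of the 29. At chr2:122146733-122148954 it had percentiles of 94.6, 90.0 and 92.8 in Syn and 87.2, 88.8, 90.3 and 88.8 in Allo. On the shared rank all 4 Allo libraries stood below all 3 Syn libraries, at 82.9 ± 0.905 (SD, n = 4) against 88.9 ± 3.43 (SD, n = 3). The difference of −5.96 (SE 1.99) did not pass (limma adjusted p = 0.112; exact permutation p = 0.0286, two-sided, the smallest that 35 relabellings allow). The median summit falls between the GAAANNGAA and GGGANTTTC matches of the printed window, with summits spread over 123 bp. A weak region 1.8 kb before the start, chr2:122145769-122146163, had peaks in all 4 Allo libraries at 24.9, 37.9, 7.99 and 23.1 and in none of Syn; it was singled out after its values had been seen.

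The peptide transporter and immunoproteasome genes lie side by side on chromosome 17, and neither of the start regions of Tap1, Psmb8 and Psmb9 passed the test. The start region shared by Tap1 and Psmb9, chr17:34186634-34188381, had percentiles of 94.0, 90.8 and 93.2 in Syn and 91.6, 92.6, 94.1 and 92.9 in Allo. Its shared rank differed by −0.0769 (SE 1.57), and the groups overlapped. At the Psmb8 start, chr17:34197305-34198801, where some summits fell to Tap1 by distance, the percentiles were 91.7, 92.9 and 91.8 in Syn and 84.5, 91.5, 89.1 and 92.8 in Allo. Its shared rank differed by −4.23 (SE 2.19; limma adjusted p = 0.302), with Allo 1 and Allo 3 the lowest. These 2 regions were the only ones assigned to Tap1, Psmb8 or Psmb9.

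Tap2, the second chain of the transporter, had the lowest ranked start of the set and the single region of the 18 that passed the test. The strand of Tap2 is not in the tables used, and distances are from its lower-coordinate end, chr17:34204479. The region at that end, chr17:34204335-34205190, had percentiles of 77.1, 76.2 and 77.9 in Syn and 66.1, 68.7, 80.7 and 75.1 in Allo. Allo 3 stood above Syn and the other 3 Allo libraries below it (shared rank difference −7.11, SE 5.05; limma adjusted p = 0.47). Its best peak was narrower in every Allo library, at 595, 601, 658 and 544 bp against 712, 790 and 816 bp in Syn. This width was reported because the groups did not overlap, so no p is given for it. No other shared member region of the 18 had widths that stood apart with Allo narrower, where 8.23% of all shared regions did so. In the other direction the share of all shared regions was 3.18%, and no member was among them. Mean peak width over whole lists was 571 to 611 bp in Allo and 623 to 639 bp in Syn, and its part in the Tap2 width was not tested.

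The Tap2 region that passed lies 14.4 kb from the lower-coordinate end and 2.51 kb beyond the upper end of the gene, at chr17:34218390-34219439. It had percentiles of 82.5, 82.5 and 87.0 in Syn and 89.4, 92.3, 96.2 and 93.1 in Allo. Every Allo library was above every Syn library, whole-list and shared rank alike. The shared rank was 89.3 ± 2.77 (SD, n = 4) in Allo and 76.5 ± 3.25 (SD, n = 3) in Syn, a difference of 12.7 percentile points (SE 2.29; limma adjusted p = 0.0144; exact permutation p = 0.0286, two-sided). Among all shared regions 1.33% passed as higher and 1.57% as lower in Allo; of the 18 member regions 1 passed as higher and 0 as lower. At an unadjusted limma p under 0.05 the members numbered 4 of 18, against 19.8% of all shared regions.

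The call at this Tap2 region did not hold without Syn 1 (11.7; limma adjusted p = 0.065), without Syn 2 (11.5; limma adjusted p = 0.0611) or without Allo 3 and Allo 4 (10.7; limma adjusted p = 0.0827). Ranked by fold enrichment the difference was 1.46 (limma adjusted p = 0.82). The fold itself was 9.77, 9.49 and 11.4 in Syn and 11, 11.7, 12.7 and 12.1 in Allo. The call was also lost on whole-list percentiles (8.75; limma adjusted p = 0.0555), with normal scores of the ranks (limma adjusted p = 0.1) and with absent peaks at 0 (8.75; limma adjusted p = 0.125). The 2 other regions of Tap2 lay nearer its lower-coordinate end. At 1.62 kb the shared rank was 26.5 ± 7.79 (SD, n = 4) in Allo and 16.4 ± 2.07 (SD, n = 3) in Syn (limma adjusted p = 0.385). At 0.774 kb before that end, peaks were called in Syn 3 at 2.04 and in Allo 2, 3 and 4 at 4.41, 40.3 and 53.1.

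**Figure D2:**
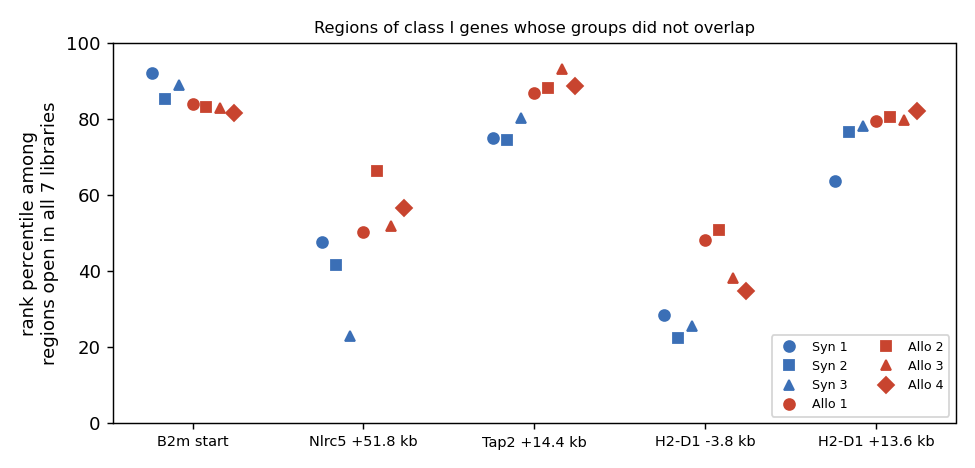
Shared rank percentile (vertical axis, among regions present in all 7 libraries) of the 5 class I regions in which no Syn library overlapped an Allo library; each point is a library. The B2m start is lower in Allo, and the other 4 regions are higher; the Tap2 region at 14.4 kb, 89.3 against 76.5, is the one that passed the test.

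No region of Tapbp or Erap1 passed the test. Tapbp, which bridges the transporter and the heavy chain, had a single region at chr17:33918793-33921065. Its percentiles were 91.6, 88.2 and 87.0 in Syn and 88.0, 89.0, 87.0 and 87.2 in Allo, a shared rank difference of −2.5 (SE 2.63). The region at the start of Erap1, the aminopeptidase that trims peptides in the endoplasmic reticulum, was chr13:74638951-74640544. Its percentiles were 93.1, 89.3 and 95.8 in Syn and 89.5, 89.5, 95.6 and 92.8 in Allo (shared rank difference −1.44, SE 2.28). In both genes the groups overlapped. The 3 further Erap1 regions, 8.2, 15.3 and 21.2 kb into the gene, were weak, and none of them was in all 7 libraries. The first had a peak in Allo 2 at 8.48, and the last had peaks in Allo 3 at 59.2 and Allo 4 at 20.1. The region at 15.3 kb was called in all 3 Syn libraries at 10.9 to 45.0 and in 3 Allo libraries at 19.2 to 31.3.

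Nlrc5, the transactivator, was the member with the most regions, 9, and held the 1 region of the 29 that was present in every Allo and no Syn library. The gene spans chr8:94434335-94527272; its strand is not in the tables used, and distances are from the lower-coordinate end. The region at that end, chr8:94433649-94434703, had percentiles of 77.3, 80.6 and 85.0 in Syn and 81.3, 85.8, 88.1 and 87.5 in Allo. The groups overlapped, and the shared rank was 78.5 ± 1.32 (SD, n = 4) in Allo and 72.1 ± 4.81 (SD, n = 3) in Syn (difference 6.33, SE 3.14; limma adjusted p = 0.28; 3.98 without Syn 1). It was the only start of the set that was higher in Allo, and by fold enrichment the difference turned to −14.1.

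The region 13.7 kb into Nlrc5, chr8:94447657-94448160, was present in all 4 Allo libraries and in no Syn library. Its percentiles were 34.4, 27.6, 67.7 and 61.3, the higher pair in Allo 3 and Allo 4. No region of the 29 was present in every Syn and no Allo library; over all merged regions the Allo-only pattern made up 1.14% and the Syn-only pattern 1.01%. In a limma fit over all 103809 regions with a missing peak set to percentile 0, 0.0106% passed as higher in Allo, and none of the member regions did. Presence chose this region, so no p is given for it.

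The next region lies 9.1 kb into Nlrc5 at chr8:94442946-94443639. It was called in all 4 Allo libraries at 48.4, 53.5, 62.6 and 56.2, and in Syn 1 at 8.35. The Allo values were close together and far above that of Syn 1, while Syn 2 and Syn 3 had no peak. The −log10 q in Syn 1 was 4.56, so with a minimum of 5 the region counted as Allo-only. Another region, 2.79 kb into the gene at chr8:94436992-94437279, was called in Allo 1, 3 and 4 at 28.0, 58.4 and 40.6 and in no Syn library.

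Deeper in the gene 2 regions were present in all libraries. At 51.8 kb, chr8:94485065-94486259, the percentiles were 62.9, 59.5 and 46.2 in Syn and 59.8, 77.6, 72.3 and 73.1 in Allo. On the shared rank all Allo libraries stood above all Syn libraries, at 56.3 ± 7.16 (SD, n = 4) against 37.4 ± 12.8 (SD, n = 3), a difference of 18.9 (SE 7.61; limma adjusted p = 0.182). Without Syn 3, the lowest library, it was 11.6. At 57.8 kb, chr8:94491867-94492904, they overlapped, and the difference was −4.51 (SE 5.93). The 3 remaining regions were weak. The region 16.0 kb before the lower-coordinate end had a peak in Allo 2 alone at 15.4, and that at 66.3 kb in Syn 3 alone at 3.31. The region at 94.1 kb, just beyond the upper end, was called at 21.9 to 26.8 in Syn and at 13.9 to 38.3 in 3 Allo libraries.

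**Figure D3:**
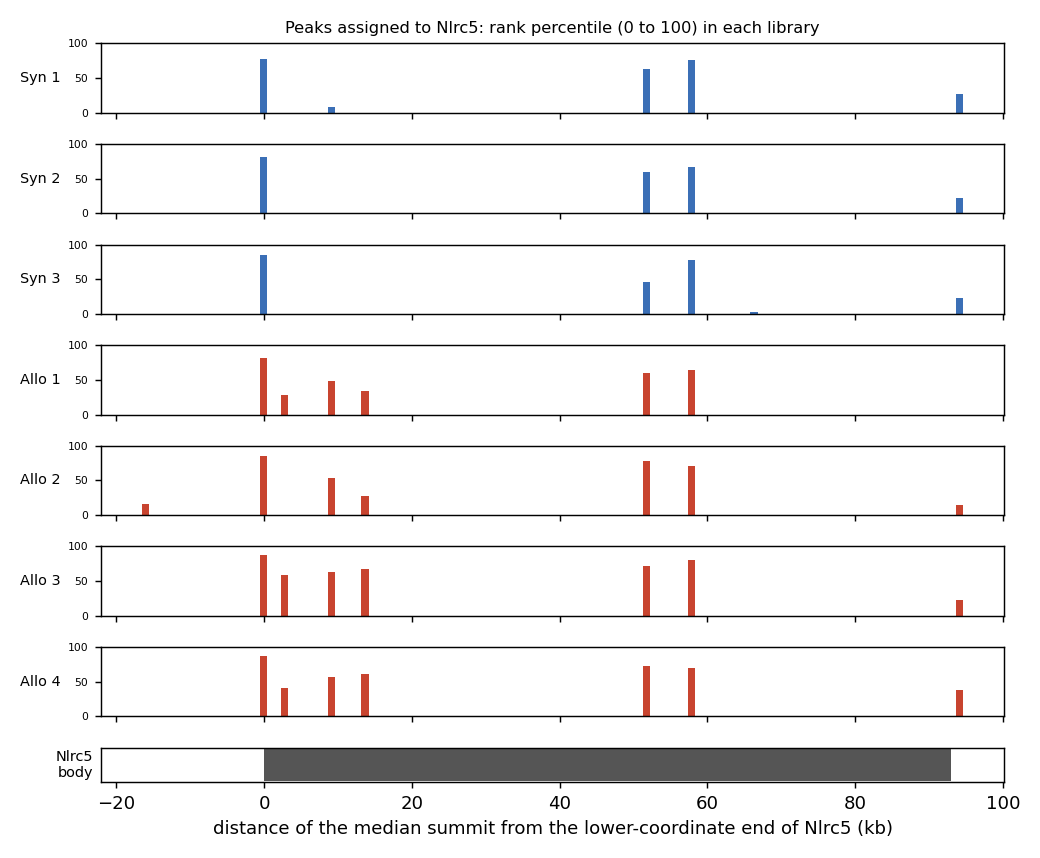
Peaks assigned to Nlrc5 in each library, drawn at the distance of the median summit from the lower-coordinate end of the gene (kb, horizontal axis), with bar height the whole-list rank percentile (0 to 100). The bars at 2.79, 9.1 and 13.7 kb are seen in Allo rows, with 1 bar of 8.35 in Syn 1, while the bars at the start and at 51.8 and 57.8 kb are in every row.

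Counted as peaks, Nlrc5 had 5, 5 and 5 in Syn and 6, 7, 7 and 7 in Allo. Per 10000 peaks of the library this was 0.676 ± 0.0207 (SD, n = 3) in Syn and 0.879 ± 0.0729 (SD, n = 4) in Allo, with every Allo library above every Syn library (exact permutation p = 0.0571, two-sided). The smallest p that 3 and 4 libraries allow is 0.0286, and that value was reached with −log10 q of at least 5 and with peaks beyond 5 kb left out. With all lists shortened to 62977 peaks the exact permutation p was 0.0857. Over the 17233 genes with a peak, 4.82% stood apart with Allo higher and 4.72% with Allo lower; of the 10 members, Nlrc5 was the only one to do so. All members together had 3.32 ± 0.373 peaks per 10000 (SD, n = 4) in Allo and 3.2 ± 0.119 (SD, n = 3) in Syn, a difference of 0.127 that became −0.137 without Allo 1 and Allo 2. NLRC5 is also expressed in leukocytes. Peaks of the 7 T cell markers numbered 0.695 to 0.814 per 10000 in Syn and 0.635 to 1.22 in Allo, and those of the 3 pan-leukocyte markers 0.785 to 0.973 and 0.635 to 1.35. A region assigned to Lck, 1 of 4 shared T cell marker regions, passed as higher in Allo (shared rank difference 13.4, limma adjusted p = 0.048). A region of Adgre1, 1 of 8 shared myeloid marker regions, passed as lower (−23.3, limma adjusted p = 0.0301). Over all shared regions 1.33% passed as higher and 1.57% as lower. Stem cell and epithelial markers also had calls higher in Allo. These were at Ascl2 (40.3, limma adjusted p = 0.0107, 1 of 35 shared regions) and Vil1 (36.7, limma adjusted p = 0.0197, 1 of 36). Within 500 bp of the start, 12 of the 15 T cell, myeloid and pan-leukocyte markers had no peak in any library. Of the other 3, Coro1a had one in all 7 libraries, Cd4 in 3 Syn and 2 Allo, and Cd68 in 1 Syn and 4 Allo. For Cd4 the annotated gene ends stood in for the start, and no peak was assigned to Cd4 in any library. The part of other cells in the Nlrc5 regions was not tested.

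**Figure D4:**
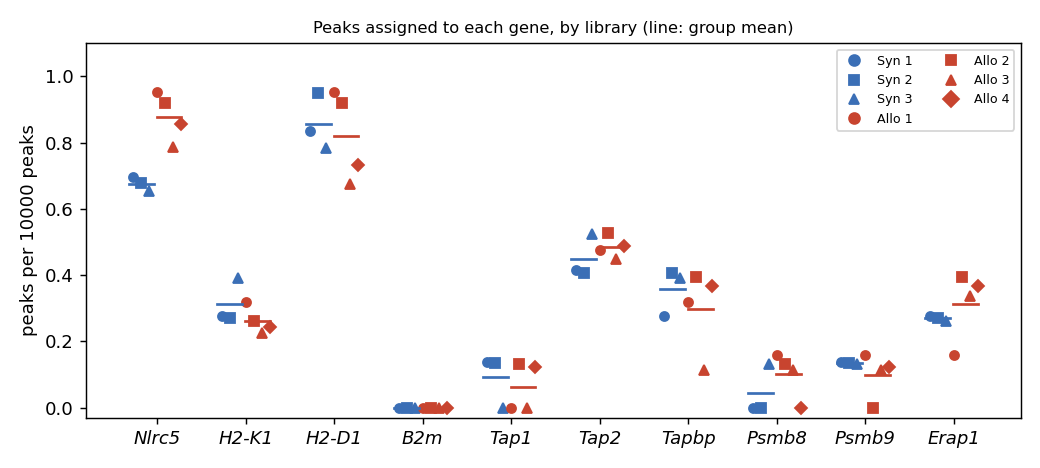
Peaks assigned to each of the 10 genes per 10000 peaks of the library (vertical axis); points are libraries and lines are group means. Nlrc5 is the gene whose groups stand apart, 0.879 in Allo against 0.676 in Syn, and B2m is at 0 because its start lies in the annotated body of Patl2.

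Summit positions separated the groups in 0 of the 18 shared member regions and in 5.87% of all shared regions. With 18 regions this 0 cannot be told apart from that share. The member count was 3 without Syn 3 and 3 without Allo 1 and Allo 2. The median range of the summit over 7 libraries was 73 bp in member regions and 71 bp in all. In shared rank, 4 of the 18 stood apart with Allo higher (1 of Nlrc5, 1 of Tap2 and 2 of H2-D1) and 0 with Allo lower, against 8.41% and 8.86% of all shared regions. The difference was above 0 in 8 of the 18, and in 51.2% of all shared regions; the medians were −0.501 and 0.153. The 10 shared regions away from gene starts had a median difference of 7.1, from −4.51 to 18.9, with 7 of them higher in Allo. This split by distance from the start was made after the values had been seen.

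**Figure D5:**
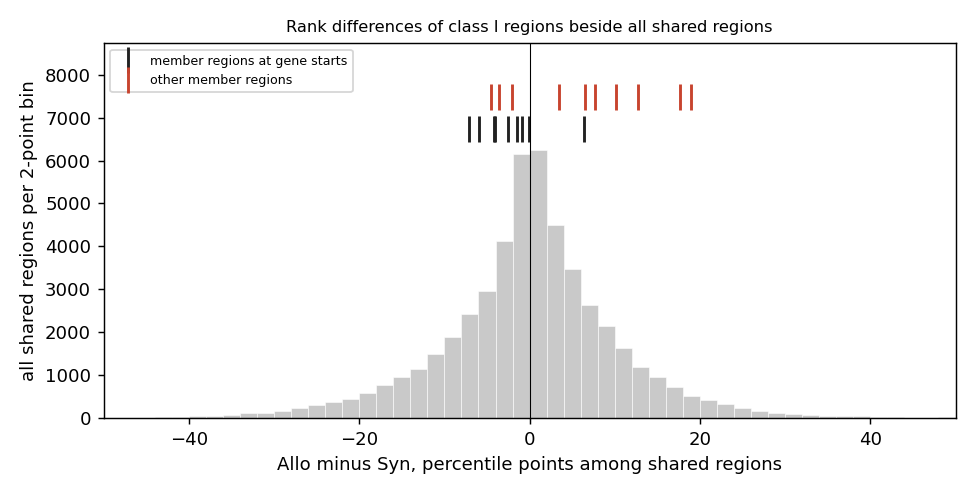
Distribution of the Allo minus Syn difference in shared rank percentile over all 50324 shared regions (grey, regions per bin), with member regions drawn as ticks. Ticks at gene starts (black, 9 regions, B2m included) lie from −7.11 to 6.33, and the other member regions (red) from −4.51 to 18.9.

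Among 38 further genes of the pathway, 37 were found as protein-coding genes and 36 had at least 1 region, 175 in all. Of their 93 shared regions 3 passed limma as higher in Allo and 2 as lower, where 1.33% and 1.57% of all shared regions did. Of their 175 regions 5 were Allo-only and 4 Syn-only, where 1.14% and 1.01% of all merged regions were. The 8 partners of NLRC5 (Rfx5, Rfxank, Rfxap, Creb1, Atf1, Nfya, Nfyb and Nfyc) each had a peak at the start in all 7 libraries, and none of their 16 shared regions passed. For Rfxap the annotated gene ends stood in for the start. Creb1, a CREB/ATF factor, had an Allo-only region inside its gene at 12.0 to 29.8, and Nfyc, an NF-Y subunit, had one just outside its gene at 11.9 to 48.5. Irf1, an interferon-induced activator of class I genes, had 3 Allo-only regions, of which chr11:53774674-53775293 lies in its body at 20.5, 12.9, 40.2 and 36.5. Outside the gene lay chr11:53759564-53759824 at 21.4 to 35.1, and chr11:53794742-53795091, near the bottom of the lists at 0.742 to 15.9. Nfkb1, the p50 subunit of NF-kB, had a Syn-only region outside its gene at 11.1 to 32.8. The list of 5 upstream factors, with Irf1, Irf2 and Nfkb1, had 71 regions, of which 3 were Allo-only and 2 Syn-only.

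Irf2, which binds the same response element as Irf1, had calls in both directions. Its region chr8:46780719-46781751, inside the gene, rose from a shared rank of 32.0 in Syn to 68.7 in Allo (difference 36.7, SE 7.06; limma adjusted p = 0.0181). Its region chr8:46882567-46883655, beyond the gene, fell from 44.8 to 17.5 (difference −27.3, SE 6.77; limma adjusted p = 0.0455), and another outside the gene was Syn-only. Lnpep, an aminopeptidase of cross-presentation, had 2 Syn-only regions and 1 that fell from 47.5 to 11.4 (difference −36.1, SE 6.46, limma adjusted p = 0.0142). The region that fell, chr17:17656469-17657287, and the Syn-only chr17:17496775-17497094 lie outside the gene, and the Syn-only chr17:17600977-17601205 lies inside it. With absent peaks at 0 none of these calls passed (limma adjusted p = 0.103 and 0.324 for Irf2 and 0.145 for Lnpep). Over their lists, the 5 upstream factors had 34 shared regions, of which 1 passed as higher and 1 as lower, and the 6 peptide loading genes had 10, of which 1 passed as lower. The 6 other proteasome genes had 8 shared regions, and none of them passed.

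Nonclassical class I heavy chains gave the 2 calls at a gene end within the pathway. At H2-Q7, of the Qa-2 family, the region chr17:35438760-35440609, which holds the lower-coordinate end of the gene, had percentiles of 88.3, 88.7 and 89.0 in Syn and 94.0, 94.4, 92.4 and 95.3 in Allo. Its shared rank rose from 83.3 to 90.7 (difference 7.38, SE 1.8; limma adjusted p = 0.0427). At H2-T24 the region chr17:36019920-36021422, which holds the upper-coordinate end, had percentiles of 32.9 to 53.1 in Syn and 69.7 to 75.9 in Allo. Its shared rank rose from 24.8 to 57.6 (difference 32.9, SE 7.14; limma adjusted p = 0.0288). In both regions every Allo library stood above every Syn library. With absent peaks at 0 neither region passed (limma adjusted p = 0.0979 for H2-Q7 and 0.112 for H2-T24). The 12 heavy chain genes found had 25 shared regions, of which 2 passed as higher and 0 as lower. Values of the H2 genes among them are uncertain for the reason given for H2-K1.

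The 3 genes outside these lists whose best region followed that of Nlrc5 most closely over the 7 libraries were Depdc5 (Pearson r = 0.999), Gm52217 (r = 0.994) and Cenpe (r = 0.991). They are the closest of 14965 genes compared on 7 points, among which 284 had r above 0.9, and no p is given.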

How the data were processed

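Chromatin accessibility was measured by Omni-ATAC-seq in 7 libraries (3 Syn, 4 Allo). The authors deposited 1 peak list per library with, for each peak, a score, a fold (ratio) enrichment, −log10 p, −log10 q and a summit; the lists hold no counts. Per the submitters' processing notes, the build was mm10 and the tools were MACS2 and MACS3 (peak calling), Bowtie2 and Trim Galore, without versions. Filters on duplicates or mapping quality are not given in the sources used here. Per-peak values served only to rank and filter peaks within a list, so a rank can differ with sequencing depth or library complexity.

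Peaks on chromosomes 1 to 19 and X with an overlap of at least 1 bp were merged, the best peak per library kept, and genes assigned from 21521 protein-coding RefSeq genes (110 rows on patch scaffolds were left out). Shared rank percentiles were tested with limma 3.58.1 (R 4.3.3; trend, no covariate, Benjamini-Hochberg over all 50324 shared regions, threshold 0.05), single values with exact permutation over 35 relabellings (Python 3.11.15, scipy 1.17.1). The script was tested on simulated data. The labels call each library an independent pool of mice, and the main fit did not treat the replicate numbers as pairs.

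The members and lists were chosen with earlier results of these data known. The 10 members are always named, each with its start region, its best region and any region that was Allo-only, Syn-only, called or apart in summit or width; pathway genes are named only where a region was Allo-only, Syn-only or called. Alternatives changed the peak threshold, list length, ranking value, merging, gene distance and libraries. Sequences are RefSeq's (GRCm38.p6).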

Additional observations from a re-analysis of the deposited data

How the results depend on the processing

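All-region calls, 667 higher and 792 lower in Allo, were 418 and 523 with lists shortened to 62977 peaks, 2661 and 3286 without Allo 1 and 2, 241 and 201 without Allo 3 and 4, 181 and 51 on whole-list percentiles, 32 and 17 by fold, 11 and 0 with absent peaks at 0, and 290 lower with normal scores; leaving out 1 library gave 55 to 1572 and 49 to 2136. The member call (Tap2 at 14.4 kb) became 0 without Allo 3 and 4, on whole-list percentiles, by fold, with normal scores and with absent peaks at 0; it was 0 to 1 with 1 library left out, and 1 member was called lower without Allo 1 and 2. Allo-only member regions were 2 with −log10 q of at least 5, 2 with shortened lists, 3 without Allo 1 and 2, 1 to 2 with 1 library left out, and 2 when B2m regions within 5 kb were added, a choice made after seeing the data; Syn-only member regions were 0 throughout. Allo-only and Syn-only regions in all, 1183 and 1051, turned their order with shortened lists (958 and 1183) and with a coverage of at least 50% (1152 and 1486). They were 7040 and 2256 without Allo 1 and 2, Syn-only 2770 without Allo 3 and 4, and 1279 to 2453 and 1084 to 2021 with 1 library left out. Member summits apart numbered 3 without Allo 1 and 2, 1 without Allo 3 and 4, and 0 to 3 with 1 library left out; widths apart 11, 3 and 1 to 5.

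Correlations of same-numbered deviations were 0.0494, −0.0403 and 0.0539, and those of differently numbered ones ran from −0.0638 to 0.0476. With only 3 same-numbered pairs these values cannot show whether the replicate numbers pair the libraries. With the replicate block the fit called 262 regions higher and 267 lower, and the Tap2 difference was 12.9; the Nlrc5 peak difference was 0.211 with the block (exact sign-flip p = 0.25, the smallest possible).

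Signs turned, all without a call, as follows. By fold: Nlrc5 start −14.1, Tap2 at 1.62 kb −2.82, H2-D1 at 6.71, 11.8 and 13.6 kb −8.37, −11.5 and −4.10. Without Allo 1 and 2: Erap1 start 0.843, H2-K1 at 8.32 kb 4.07. Without Allo 3 and 4: Tapbp 0.503, H2-D1 at 11.8 kb −14.1, at 22.5 kb 4.80, H2-D1 peaks per 10000 0.0799. The Tap1/Psmb9 start was 0.163 on whole-list percentiles and with absent peaks at 0, and 0.124 with the replicate block, where the 2 H2-D1 regions were −2.58 and 5.19. With shortened lists H2-D1 peaks differed by 0.0397. With 1 library left out, the ranges that crossed 0 were −3.92 to 0.657 (Erap1 start), −8.86 to 0.0468 (H2-K1 at 8.32 kb), −1.37 to 0.999 (Tap1/Psmb9), −2.60 to 10.2 and −6.17 to 5.17 (H2-D1 at 11.8 and 22.5 kb), −0.08 to 0.0125 (H2-D1 peaks) and −0.102 to 0.000393 (Tapbp peaks). The cause was not tested. The difference of all member peaks per 10000, 0.127, was −0.137 without Allo 1 and 2. No depth is known, so weak absent peaks cannot be told from peaks not detectable. Merging of fixed windows around summits was not run for summits or widths.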
